A study of Mus musculus with 3 samples.

Results

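Keratin 79 (Krt79) and beta-defensin 6 (Defb6) were used to pick out cells of the upper hair follicle in single-cell RNA sequencing libraries of mouse back skin. A cell was taken when Krt79 made up at least 0.2% of its UMIs (unique molecular identifiers, which count captured RNA molecules), when it held at least 2 Defb6 UMIs, and when it held at most 2 UMIs of the kallikrein proteases Klk6 and Klk10 together. This rule found 377 of the 8851 kept cells. P38 gave 132 of 2109 cells, 6 months 86 of 3502 and 12 months 159 of 3240. They are called Krt79/Defb6 cells here. Krt79, Defb6, Klk6 and Klk10 chose the cells, so their levels in them are a description and not a finding.

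Each age was a single library: P38 from male mice in catagen, 6 months from female mice with mostly anagen follicles, and 12 months from male mice with mixed telogen and anagen follicles, by the methods of the study. The labels give all 3 as wildtype control back skin with no treatment. The methods add that the mice carried Krt14-H2BGFP, a green histone driven by a promoter of basal keratinocytes, and that epidermal and follicle cells were mixed in a set ratio by flow cytometry, whereas the labels name a dissociation of total back skin and no sort. The study also states that the P38 sample was sorted for Krt14-H2BGFP epithelial cells and held few other cells. By its account fibroblasts and immune cells were captured at 6 and 12 months. Age, sex, hair cycle stage, any difference in sorting and library therefore cannot be told apart. No test between ages was possible, and if the cells were sorted, the share of any cell type also depends on the sort.

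In mouse skin, the upper follicle (infundibulum and junctional zone) links the hair canal to the epidermis and holds the opening of the sebaceous gland. Its suprabasal cells line the hair canal and are known for Krt79, Gata6 and antimicrobial proteins, while the junctional zone beneath it is known for Lrig1 and Plet1. Keratinocytes there, as in the epidermis, lose basal keratins and integrins as they differentiate and then make proteins and lipids of the cornified barrier.

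The RefSeq promoters (GRCm38.p6) of the genes that chose or mark these cells are shown because the results turn on these genes. The table holds 4 of the 9 genes looked up, and each line gives the 250 bases before the start site, 5′ to 3′ on the strand of the gene, with matches to AGATAA (the GATA motif, searched on both strands) and TATAAA (the TATA box, on the strand of the gene) in capitals. Krt79 (chr15:101940325-101940574, minus strand), Defb6 (chr8:19225228-19225477, plus strand), Alox12e (chr11:70322531-70322780, minus strand) and Rbp2 (chr9:98490287-98490536, plus strand) read as follows.
Krt79: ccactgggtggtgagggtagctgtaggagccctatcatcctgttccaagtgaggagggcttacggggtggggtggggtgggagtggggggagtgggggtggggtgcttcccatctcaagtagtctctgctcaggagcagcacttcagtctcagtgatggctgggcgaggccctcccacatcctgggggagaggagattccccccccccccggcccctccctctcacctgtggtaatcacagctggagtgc
Defb6: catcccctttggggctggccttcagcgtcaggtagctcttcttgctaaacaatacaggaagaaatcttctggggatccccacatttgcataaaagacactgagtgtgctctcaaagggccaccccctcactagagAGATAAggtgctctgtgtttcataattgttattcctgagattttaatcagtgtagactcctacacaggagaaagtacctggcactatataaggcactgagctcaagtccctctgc
Alox12e: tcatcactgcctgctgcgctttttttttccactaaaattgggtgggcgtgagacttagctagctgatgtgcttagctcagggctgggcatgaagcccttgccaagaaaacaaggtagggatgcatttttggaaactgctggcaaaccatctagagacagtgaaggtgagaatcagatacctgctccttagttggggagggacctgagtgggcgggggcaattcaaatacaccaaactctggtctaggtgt
Rbp2: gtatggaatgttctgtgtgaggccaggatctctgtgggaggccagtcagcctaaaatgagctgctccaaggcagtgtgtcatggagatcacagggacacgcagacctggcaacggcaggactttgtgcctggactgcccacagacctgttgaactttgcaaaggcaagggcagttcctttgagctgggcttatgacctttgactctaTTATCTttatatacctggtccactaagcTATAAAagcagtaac
The search also covered the 50 bases after the start site. Positions count from the RefSeq start site, and GENCODE places the start elsewhere for Rbp2 and Alox12e. By the GENCODE spans given below, the printed stretch lies inside the gene for Rbp2 and partly inside it for Alox12e. AGATAA lay at -115 in Defb6, at -43 in Rbp2 (as TTATCT on the strand of the gene) and at 31 in Krt79, past the stretch printed, and it was not in the window of Alox12e. It was in 11.2% of the 32851 promoters of the same length. TATAAA lay at -15 in Rbp2 and was in 8.32% of them. Neither TGANTCA (the AP-1 motif, 7.81% of promoters) nor AACNGGTT (the grainyhead motif, 2.09%), searched on both strands, was in any of the 4 windows. A match of letters is a description and shows no binding.

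The members were well covered in all 3 libraries. Their UMIs numbered 2403534, 1250070 and 2047777 in the order P38, 6 months and 12 months, with a median of 18275, 13348.5 and 12138 UMIs per cell. Their share of kept cells was 6.26% at P38 (exact binomial 95% interval 5.26 to 7.38%), 2.46% at 6 months (1.97 to 3.02%) and 4.91% at 12 months (4.19 to 5.71%). The kept cells were far more than the study lists at 6 months and slightly more at 12 months, so the shares at these ages depend on that denominator. Levels below are CPM, the UMIs that a gene had in the pooled cells of a class and library, scaled to a total of 1000000, and every interval given is an exact 95% interval that covers counting error only. The levels of different genes are not compared with each other.

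Cell barcodes recurred between libraries: 136 were in both the 6 months and the 12 months library, 5 in both P38 and 6 months, and 2 in both P38 and 12 months. Of these shared barcodes, 1, 2 and 8 were members at P38, 6 months and 12 months, and none was a member in both libraries that held it. Markers of other lineages (T cells, Langerhans cells and macrophages, fibroblasts, melanocytes, endothelium, inner root sheath and hair shaft) gave 2 or more UMIs in 4 members at P38, 22 at 6 months and 15 at 12 months, which is 3.03%, 25.6% and 9.43% of them. For some lineages much of that signal came from 1 cell. At 6 months 1 cell held 93.4% of the Langerhans and macrophage marker UMIs and 1 cell held 87.9% of the melanocyte marker UMIs, and at 12 months 1 cell held 96.6% of the fibroblast marker UMIs. Inner root sheath and hair shaft markers were spread over more cells, with 2 or more UMIs in 14 members at 6 months and 8 at 12 months. Of the UMIs of these markers 1 cell held 12.7% and 10%. Summed T cell markers stood at 0.416, 1.6 and 0.488 CPM. Results that rest on single cells are given below with the share of that cell beside them.

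Some cells lay close to the limits of the rule, and the limit on Defb6 removed many shallow barcodes at 6 months. Members with 0.2 to 0.25% Krt79 numbered 15, 8 and 11 at P38, 6 months and 12 months, and cells otherwise alike with 0.15 to 0.2% numbered 14, 20 and 6. Members with exactly 2 Defb6 UMIs numbered 7, 7 and 6. Cells that passed on Krt79 and held 1 Defb6 UMI numbered 11, 32 and 6, and those with none numbered 14, 178 and 43. Krt79 cells short of the Defb6 criterion had a median of 14790, 554.5 and 788 UMIs per cell, so at the later ages most of them were shallow. The kallikrein limit took out 22, 24 and 16 cells, of which 5, 7 and 6 held 3 to 5 UMIs. Members had a median of 0.662%, 0.761% and 0.751% Krt79 and of 155.5, 79 and 81 Defb6 UMIs.

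**Figure D1:**
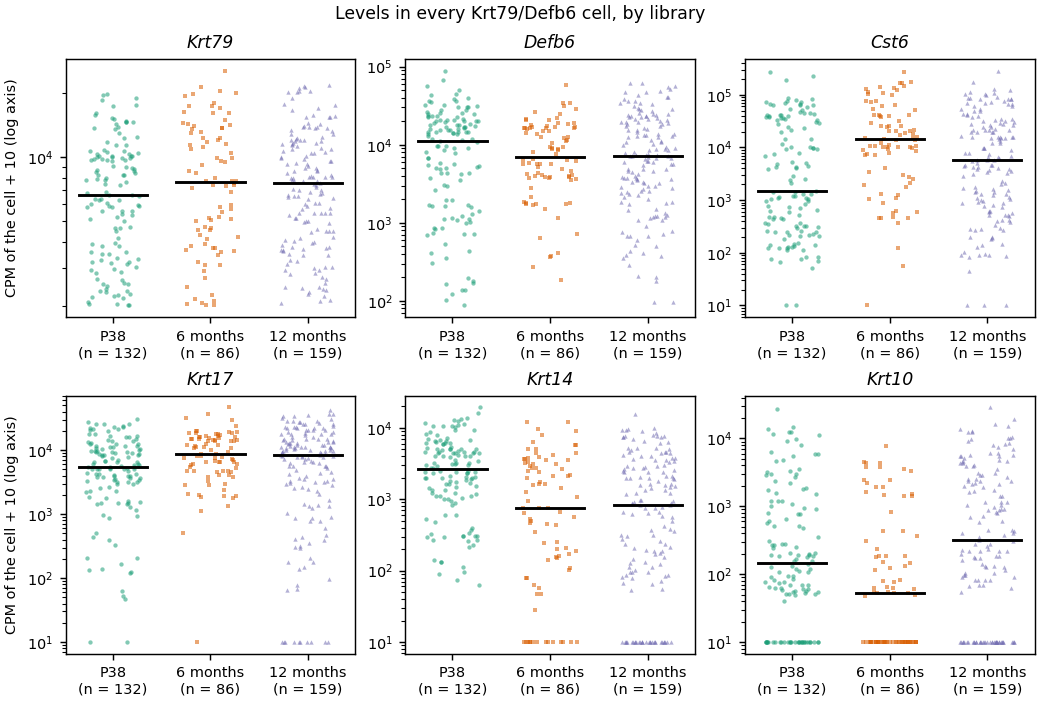
Levels of 6 genes in each Krt79/Defb6 cell at P38 (132 cells), 6 months (86) and 12 months (159), as CPM of the cell plus 10 on a log axis, where each point is a cell and the bar is the median. Krt79 spans a narrower range than the other genes, but the rule set a lower limit on its share, so that contrast is no finding. Defb6, Cst6 and Krt17 spread widely and Krt14 and Krt10 reach down to cells with none, with median Cst6 of 1469, 14175 and 5882 CPM.

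All 6 markers were detected in the members of every library. The markers were chosen with earlier results of these data known, so their presence is a description and no support. Of the 4 that the rule did not use, Alox12e and Crabp2 were found in most members. Pglyrp4 was found in a minority in every library, and Rbp2 in a minority at P38 and 6 months. Alox12e, a lipoxygenase of the epidermal type (chr11:70315610-70322628 in mm10), stood at 961 CPM at P38 (922 to 1001), 986 at 6 months (931 to 1042) and 550 at 12 months (518 to 583), with a UMI in 112, 74 and 135 cells. Crabp2, which carries retinoic acid in the cytoplasm (chr3:87948666-87953376), stood at 412, 278 and 173 CPM. Pglyrp4, a peptidoglycan recognition protein with antibacterial activity (chr3:90726906-90741517), stood at 62.4, 66.4 and 62.0 CPM. Rbp2, a cellular retinol-binding protein (chr9:98486115-98509781), stood at 34.5, 76.0 and 87.9 CPM.

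Shares of cells with a UMI fell when each cell was thinned to 3000 UMIs and shallower cells (5, 13 and 10 members) were left out. The markers stayed above outer bulge cells, which served as a reference. The level that free RNA could give was not measured. A UMI of Pglyrp4 was in 41.7%, 36.0% and 35.8% of members and in 18.9%, 15.1% and 13.4% after thinning, against none of the thinned bulge cells at any age (402, 146 and 116 cells, which allow up to 0.913%, 2.49% and 3.13% by the exact binomial interval). Rbp2 went from 24.2%, 37.2% and 54.7% to 6.30%, 13.7% and 21.5%, against 0.249%, 0 and 0 in the bulge. Thinned spinous cells held Rbp2 in 9.57%, 7.84% and 7.65%, which is above the members at P38 and below them at the later ages. They held Pglyrp4 in 7.83%, 0 and 7.65%. Gata6, a transcription factor known from the sebaceous duct and hair canal, went from 48.5%, 57.0% and 56.0% to 18.9%, 31.5% and 28.2%, against 3.73%, 0.685% and 4.31% in the bulge. The median depth of bulge cells was 14238, 13112 and 6873 UMIs. Among the members, both the unthinned and the thinned shares put Rbp2 lowest at P38.

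Cst6, an inhibitor of cysteine proteases in the epidermis (chr19:5344705-5349574), and Krt17, a keratin of follicle and appendage epithelium (chr11:100256217-100261029), are genes of the junctional zone and infundibulum list that the rule did not use. Cst6 stood at 18394, 33951 and 19012 CPM in the members. Single cells spanned a wide range of it: 10% of cells lay under 112, 571 and 188 CPM, and 10% lay over 64446, 118319 and 76755 CPM. Krt17 stood at 7475, 11119 and 10448 CPM and was found in 130, 85 and 149 cells. In these summed levels neither gene differed by 2-fold between any pair of ages, whereas the median of single cells for Cst6 (1469, 14175 and 5882 CPM) differed by more.

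To see what sets the members apart within the same libraries, they were compared with spinous cells of the epidermis (Krt10 at least 0.5% and Krt1 at least 0.1% of UMIs, Krt79 under 0.05%; 122, 64 and 204 cells), outer bulge cells (at least 2 Cd34 UMIs, Krt15 at least 0.2%, Krt79 under 0.05%; 405, 147 and 118 cells), sebaceous cells (Scd1 and Mgst1 each at least 0.1%, at most 1 Defb6 UMI; 31, 274 and 54 cells) and kallikrein cells (Krt79 at least 0.2%, at least 3 UMIs of Klk6 and Klk10; 28, 46 and 20 cells). A gene is called higher or lower when its CPM differed by 2-fold or more the same way in 3 of 3 libraries, among genes with at least 20 UMIs in both classes together in every library. Such a call is a rule of size and carries no p-value, since 3 libraries cannot give a two-sided p under 0.25 by sign changes and the classes were chosen by expression. Ratios are log2 with 0.5 counts added, given as the mean ± SD over the 3 libraries.

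Against spinous cells the members were higher in genes of the follicle and of the junctional zone. Of 7192 genes, 4.64% were called higher and 1.97% lower. Cst6 stood at 265, 212 and 182 CPM in spinous cells, which puts the members 6.72 ± 0.60 above them on the log2 scale. Krt17 stood at 158, 103 and 56.9 CPM there, a log2 ratio of 6.61 ± 0.99. The members lay above spinous cells in every library for both genes, and the counting intervals did not approach 2-fold. Of the 10 measured genes of the junctional zone and infundibulum list, 8 were called higher and none lower (Lrig1, Plet1, Gata6, Krt17, Cst6, Atp6v1c2, Fst and Aldh3a1), with a median log2 ratio of 3.08 against -0.01 over all genes.

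Several of these genes were close to absent from spinous cells. Gata6 stood at 68.6, 98.4 and 120 CPM in the members and at 0.768, 0 and 2.91 CPM in spinous cells, a log2 ratio of 6.16 at P38 (4.61 to 9.54, on 2 spinous UMIs) and 5.30 at 12 months (4.46 to 6.44), and at least 32.3-fold higher at 6 months by the limit that 3 counts allow. Adgrl3, an adhesion receptor coupled to G proteins, stood at 66.2, 80.8 and 64.9 CPM and had no UMI in spinous cells of any library, so it was at least 57.4-fold, 26.5-fold and 74.5-fold higher by the same limit per library. Foxc1, a forkhead factor of the follicle, stood at 74.9, 182 and 116 CPM against 1.54, 2.03 and 1.16 CPM (log2 ratio 6.03 ± 0.53). Lrig1, a brake on EGF receptor signalling that marks the junctional zone, stood at 54.9, 53.6 and 52.7 CPM in the members with a log2 ratio of 2.26 ± 0.38.

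Transcription factors divided the members from spinous cells in both directions. Of 35 measured factors on the epidermal list, 10 were called higher and 4 lower, with a median of 0.36. The higher ones included Sox9, a factor of the follicle lineage, at 679, 490 and 380 CPM against 44.9, 19.3 and 27.3 (4.11 ± 0.45), beside Gata6 and Foxc1. The lower ones included Gata3, Maf and Rora. Gata3, a factor of epidermal differentiation, stood at 122, 134 and 209 CPM against 421, 735 and 498 in spinous cells (-1.83 ± 0.60), and Rora, a nuclear receptor, had a ratio of -2.14 ± 0.27.

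Defence and retinoid genes were higher only in part. Of 4 measured antimicrobial genes, Defb1, Pglyrp3 and Defb6, the last a gene that chose the members, were called higher than in spinous cells, and Pglyrp4 was not, with log2 ratios of 0.88, 4.23 and 1.24. Defb1, an epithelial beta-defensin, stood at 1049, 250 and 263 CPM against 43.0, 59.0 and 29.9 (3.27 ± 1.27). Of 13 measured retinoid genes 2 were called higher, among them Crabp2 (2.82 ± 0.77). Rbp2 was not called: its ratio was -0.41 at P38 (-0.84 to 0.00), 0.39 at 6 months (-0.10 to 0.89) and 1.14 at 12 months (0.81 to 1.47). Alox12e was called higher (1.85 ± 0.14), whereas Alox12, Ptges and Hpgds of the same list of 8 lipoxygenase and prostaglandin genes were called lower. Without the upper limit on genes per cell the mean ratio of Alox12e was 1.45 and it was no longer called.

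Ligands of the EGF receptor and proteases of the barrier were also among the higher genes. Of 10 measured EGF family genes 4 were called higher than in spinous cells and none lower. Areg, an EGF receptor ligand, stood at 319, 416 and 196 CPM in the members (2.14 ± 0.82), and Tgfa, another, at 135, 43.2 and 15.6 CPM (2.08 ± 0.26). Klk7, which cleaves the junctions of cornified cells, stood at 1056, 1406 and 447 CPM against 20.7, 35.6 and 17.7 (5.20 ± 0.51). Of 18 measured genes of the cornified envelope and differentiation, 5 were called higher (Ivl, Cdsn, Tgm1, Sprr1a and Klk7) and 1 lower (Mt4). Ivl, Cdsn and Tgm1 were no longer called without the upper limit on genes per cell.

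The values of some lists depended on which cells were included, and the cause was not tested. Of 19 measured glutathione and xenobiotic genes, 8 were called higher and 1 lower than in spinous cells, and the median of the list was 0.82, but it was -0.31 without the cells that held markers of other lineages. Of 5 MHC class II genes, H2-Ab1 and Cd74 were called higher, and 1 cell held 80% of the Cd74 UMIs of the members at 6 months and 92% at 12 months. Among the genes lowest against spinous cells were Krt78, a keratin of differentiating epidermis, Gsta2, Rspo3 and Igfbp3, the last with a ratio of -5.30 ± 1.90.

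**Figure D2:**
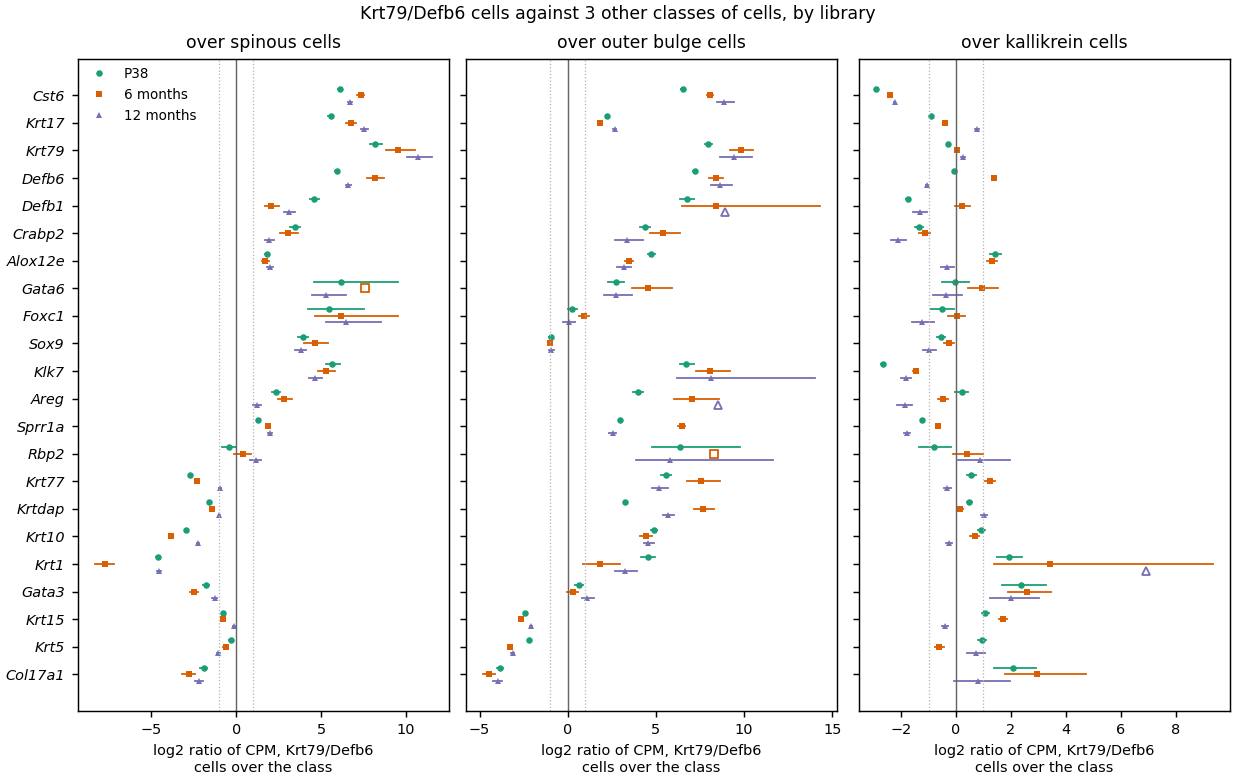
Log2 ratios of CPM in the Krt79/Defb6 cells over spinous, outer bulge and kallikrein cells for 22 genes, with P38 as circles, 6 months as squares and 12 months as triangles, exact 95% counting intervals as bars, open symbols where a class had no UMI, and dotted lines at 2-fold. Cst6 lies above spinous and outer bulge cells and below kallikrein cells in all 3 libraries, Sox9 lies above spinous cells and below bulge cells by close to 2-fold, and Gata3 lies below spinous and above kallikrein cells.

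Against outer bulge cells, which hold the follicle stem cells, the members were lower in genes that anchor cells to the basement membrane and higher in barrier genes. Of 8316 genes, 4.83% were called higher and 8.73% lower, and the median over all genes was -0.18. Of 14 measured basal adhesion genes 11 were called lower and none higher, with a median of -2.99. Col17a1, a collagen of the hemidesmosome, stood at 111, 56.8 and 76.2 CPM in the members against 1585, 1252 and 1189 in the bulge (-4.08 ± 0.33). Itgb4, the integrin of the same structure, stood at 10.4, 16.0 and 33.2 CPM against 220, 174 and 173 (-3.39 ± 1.0). Both lay below the bulge in every library.

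Of 18 measured cornified envelope and differentiation genes 13 were called higher than in the bulge and 1 lower, with a median of 4.07, or 3.86 with genes at 0 set to their limits. Krtdap, a secreted protein of differentiating keratinocytes, had a ratio of 5.54 ± 2.21, and Sprr1a, a cross-linked envelope protein, of 3.99 ± 2.15. Klk7 reached 7.64 ± 0.80 and Ly6g6c 6.85 ± 0.90. Of 18 barrier lipid genes 8 were called higher and 2 lower. Abca12, which loads lipids into lamellar granules, stood at 80.3, 96.8 and 80.1 CPM in the members (4.34 ± 0.63). Tight junctions followed, with 5 of 15 junction genes called higher and none lower, among them Cldn1, the main claudin of the epidermal barrier (2.63 ± 0.92).

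All 6 markers were called higher than in the bulge, where Krt79 and Defb6 chose the cells. The other markers were chosen with earlier results of these data known, so their calls too are a description. Pglyrp4 had no UMI in bulge cells and was at least 124-fold, 45.1-fold and 19.2-fold higher by the limit of 3 counts per library. Rbp2 stood at 0.336, 0 and 1.07 CPM in the bulge, where it rests on 2, 0 and 1 UMIs (ratios 6.37, interval 4.79 to 9.75, at P38 and 5.77, interval 3.86 to 11.7, at 12 months, and at least 51.6-fold at 6 months). Alox12e had a ratio of 3.79 ± 0.83 and Crabp2 of 4.38 ± 1.01. Of the 11 measured junctional zone and infundibulum genes 7 were called higher, and Lgr6 and Sostdc1 were called lower. Lgr6, a stem cell receptor of the upper follicle, stood at 3.74, 0 and 1.95 CPM in the members against 20.1, 12.3 and 47.3 in the bulge.

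Sox9 was lower than in the bulge in every library, just short of 2-fold on average (-0.97 ± 0.03), and Foxc1 had a ratio of 0.41 ± 0.45. Neither was called. Gata6 was called higher (3.35 ± 1.06), as were Grhl3, a factor of barrier formation that stood at 161, 79.2 and 29.8 CPM against 2.69, 0.491 and 1.07, and Ehf and Klf5. In all, 10 of 37 measured factors were called higher and 4 lower (Tfap2b, Maf, Lhx2 and Tcf7l2). The Notch list split: Notch2 (1.41 ± 0.21), Notch3 (2.46 ± 0.31) and the target Nrarp were called higher, while the ligands Jag1 (-1.57 ± 0.64) and Jag2 were called lower, in 10 measured genes. Of 16 BMP, Wnt and hedgehog genes 7 were called lower and 1, Bmp7, higher. Cdkn2b, a cell cycle inhibitor, was called higher (2.07 ± 0.73) and Ccnd1, the cyclin that starts the cycle, lower (-2.21 ± 0.44).

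The young and old feature genes, 2 lists that the study took from bulk RNA of follicle stem cells, differed in their counts. Of 86 measured young genes, 39 were called lower in the members than in the bulge and 4 higher (median -1.27). Of 79 measured old genes, 24 were called higher and 6 lower (median 0.69). Over all 8316 genes 4.83% were called higher and 8.73% lower (median -0.18). Genes that chose the classes are among these counts: Krt79 and Defb6 among the higher old genes, and Cd34 among the lower young genes. The lists were chosen by the study in such stem cells, and the same counts were not set against lists of other genes.

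Against kallikrein cells, which pass the same Krt79 limit, few genes were called: 2.97% of 6220 genes higher and 1.21% lower, and the median over all genes was 0.25 (0.52, 0.26 and -0.02 by library). That split depends on the scaling, since with TMM factors 129 genes were called higher and 133 lower. Of 18 measured kallikreins and protease inhibitors 6 were lower (Klk6, Klk7, Klk10, Klk11, Spink5 and Cst6) and none higher, where Klk6 and Klk10 defined the classes. Cst6 stood at 138537, 178302 and 89131 CPM in kallikrein cells, and the members lay below them in every library (-2.51 ± 0.36). Klk7 (-1.98 ± 0.62) and Spink5, the inhibitor of these proteases (-2.27 ± 0.74), followed, with Crabp2 (-1.53 ± 0.50) and Lrig1 (-1.74 ± 0.13).

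Of 10 measured genes of the junctional zone and infundibulum list, 3 were called higher than in kallikrein cells (Ptgs1, Sostdc1 and Aldh3a1) and 3 lower (Lrig1, Cst6 and Atp6v1c2), with a median of 0.00. Sostdc1, a secreted inhibitor of BMP and Wnt signals, stood at 94.9, 113 and 171 CPM in the members against 7.61, 5.44 and 8.39 in kallikrein cells (3.92 ± 0.37). Gata3 was called higher (2.32 ± 0.30), which places the members between kallikrein and spinous cells for this factor. Aldh3a1, an aldehyde dehydrogenase (2.44 ± 0.97), and Ptgs1, a prostaglandin synthase (2.28 ± 0.21), were called higher too. Gata6 was not called (-0.04, 0.96 and -0.35), nor was Alox12e (1.44, 1.32 and -0.33). Of 5 MHC class II genes 4 were called higher, with a median of 3.73 or 2.87 with genes at 0 set to their limits, beside the single cells that held most Cd74 UMIs. The kallikrein class had 20 cells at 12 months, and left with fewer it could not be compared.

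Against sebaceous cells, which were shallow at 6 and 12 months (median 565 and 640 UMIs), 8.26% of 6214 genes were called higher and 6.74% lower. With TMM factors 71.9% of the calls were higher. The members were higher in 13 of 16 measured cornified envelope and differentiation genes, in 8 of 10 junctional zone genes and in 17 of 37 transcription factors, and Cldn4, Krtdap and Krt17 were among the 10 largest ratios. Among the 10 genes lowest against sebaceous cells were Fa2h, Far2, Soat1 and Elovl3 of lipid synthesis, beside others such as Pparg, Mc5r and Clstn3. The members held summed sebaceous markers of 935, 215 and 102 CPM at P38, 6 months and 12 months.

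Within the members, cells ranged from basal to suprabasal keratin content. They were ranked in each library by Krt14 and Krt5 as a share of Krt14, Krt5, Krt10 and Krt1 UMIs, and cut at the middle into a basal-leaning and a spinous-leaning group of 66, 40 and 79 cells each, with 0, 6 and 1 cells that held none of these keratins left out. The median share of basal keratins was 97.0% at P38, 97.7% at 6 months and 79.2% at 12 months. Cells with only basal keratins numbered 29, 32 and 38, and cells with only Krt10 and Krt1 numbered 0, 4 and 24. Median depth was 17771.5, 13626 and 11768 UMIs in the basal-leaning group and 19127.5, 15796.5 and 12392 in the other. The cut lay at the median share of basal keratins given above, so the names of the groups are relative. A cell named spinous-leaning can still hold mostly basal keratins. These 4 keratins chose the groups and are no finding between them.

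Only 0.474% of 5277 genes were called higher in the basal-leaning group and 0.872% lower. Of the 6 markers, Rbp2 alone was called. Krt79 and Defb6, which chose the members, had log2 ratios (basal-leaning over spinous-leaning) of -0.45 ± 0.11 and -0.01 ± 0.64. Alox12e had 0.73 ± 0.79, Pglyrp4 -1.03 ± 0.56 and Crabp2 -0.65 ± 0.40. Of other genes, Krt17 (-0.24 ± 0.20), Gata6 (0.28 ± 0.31) and Sox9 (0.01 ± 0.07) were not called. Rbp2 stood at 11.3, 37.1 and 46.2 CPM in the basal-leaning group and at 55.8, 102 and 128 CPM in the spinous-leaning group (-1.72 ± 0.47), and was lower in the basal-leaning group in every library.

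Among the genes called higher in the basal-leaning group was 1 of the 8 measured basal adhesion genes, Itgb1, and none was called lower (median of the list 0.73 against 0.03 over all genes). Lpl, a lipase of triglycerides, stood at 69.6, 54.8 and 26.1 CPM against 4.78, 10.5 and 0.955 (3.43 ± 1.0). Plin2, which coats lipid droplets, stood at 612, 77.8 and 34.2 CPM against 50.2, 15 and 14.3 (2.38 ± 1.19). Mgst1, a glutathione transferase of sebocytes, stood at 852, 196 and 45.2 CPM against 124, 81.2 and 11.5 (1.99 ± 0.75). Itgb1, the common integrin of basal cells (2.27 ± 0.69), and, of genes on no such list, Snai2 (2.01 ± 0.52) and Mmp14 (1.93 ± 0.51) were called higher with them.

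Of 16 measured cornified envelope and differentiation genes, 6 were called higher in the spinous-leaning group (Krtdap, Cdsn, Casp14, Sprr1b, Asprv1 and Calm4) and none lower, with a median of -1.20. Of 14 barrier lipid genes 3 were called the same way (Elovl4, Ugcg and Acer1), with a median of -0.63, and of 15 kallikreins and protease inhibitors 4 were (Klk5, Spink5, Serpinb2 and Csta1), with a median of -0.51. Krtdap stood at 3849, 4505 and 7520 CPM there against 1186, 485 and 2221 in the basal-leaning group (-2.22 ± 0.86). Elovl4 (-2.30 ± 0.73) and Ugcg (-2.13 ± 0.12), enzymes of barrier lipids, Spink5 (-2.50 ± 0.72), Klk5 (-1.67 ± 0.37) and Sprr1b (-3.27 ± 0.90) were called the same way. So was Cdkn2b (-1.49 ± 0.40).

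**Figure D3:**
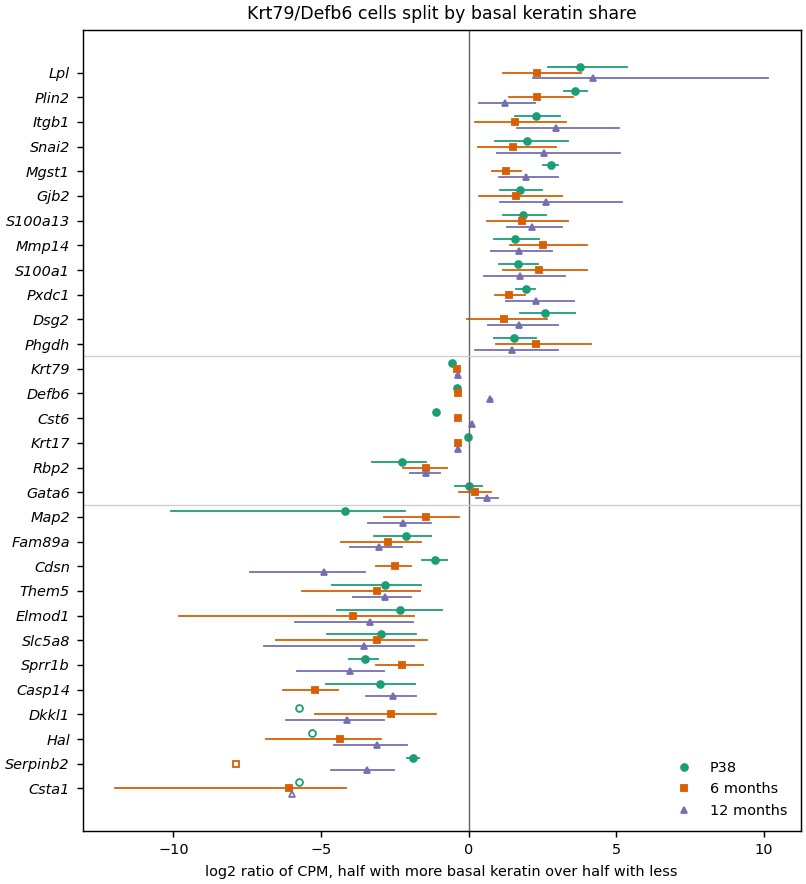
Log2 ratios of CPM in the basal-leaning over the spinous-leaning Krt79/Defb6 cells, with P38 as circles, 6 months as squares and 12 months as triangles, exact 95% counting intervals as bars, and open symbols where a group had no UMI. The upper 12 genes are those with the highest mean ratios, the lower 12 those with the lowest, and of the 6 genes between the lines only Rbp2 lies past 2-fold in every library.

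The members at the 3 ages were compared by their summed levels, where a gene is called when it differed by 2-fold or more and its exact counting interval excluded 0. This describes 3 libraries and not ages. Of 8364 genes, 6.13% were called higher and 5.99% lower at 6 months than at P38. Of 9004 genes, 10.7% were called higher and 10.9% lower at 12 months than at P38, and of 8400 genes, 7% higher and 7.98% lower at 12 months than at 6 months. With mitochondrial and ribosomal protein genes left out of the total, 63.7% of the 12 months over P38 calls and 57.7% of the 12 months over 6 months calls were higher. Ribosomal protein genes made up 18.5%, 21.7% and 26.1% of the UMIs of the members.

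Several genes that stood out in the members were not called. Alox12e, Pglyrp4, Cst6, Krt17, Gata6 and Sox9 were called between no pair of ages. For Cst6 the median of single cells differed by more than the summed level, as given above. Krt79 and Defb6 were not called either, but the rule set a lower limit on both in every library, so that is no finding. Rbp2 was called higher at 6 months (2.2-fold) and at 12 months (2.54-fold) than at P38. Crabp2 was called lower at 12 months than at P38 (2.38-fold). Plet1, a surface protein of the junctional zone, stood at 2818, 1822 and 372 CPM, 7.57-fold lower at 12 months than at P38, and spinous cells (678, 395 and 56.1 CPM) and outer bulge cells (983, 167 and 70.9 CPM) also had their lowest level at 12 months.

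Several immediate early genes, Fos, Jun and Egr1 among them, were highest at 12 months. Fos stood at 741 CPM at P38 (707 to 777), 1410 at 6 months (1345 to 1478) and 4713 at 12 months (4619 to 4808), 6.36-fold higher at 12 months than at P38. Jun stood at 952, 1998 and 4234 CPM and Egr1 at 330, 621 and 1782 CPM. Of the 20 measured immediate early and heat shock genes 9 were called higher at 12 months than at P38 (Fos, Fosb, Jun, Junb, Jund, Egr1, Atf3, Ier2 and Zfp36) and 4 lower (Fosl1, Fosl2, Hspa1a and Hsph1), with a median of 0.29 against 0.03 over all genes. Over all genes 10.7% were called higher and 10.9% lower. Spinous cells (1516, 2152 and 3903 CPM) and outer bulge cells (4482, 4363 and 5186 CPM) also had their highest Fos at 12 months, with a smaller difference in the bulge.

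Several junction genes, Cldn1 and Cldn4 among them, were lower at 12 months. Cldn1 stood at 1181, 670 and 232 CPM and Cldn4 at 1149, 1188 and 300 CPM, 5.08-fold and 3.82-fold lower at 12 months than at P38. Ocln, the occludin of tight junctions, stood at 113, 93.6 and 35.2 CPM, and Gja1, a connexin, at 277, 106 and 6.35 CPM. Of 18 measured tight and gap junction genes 8 were called lower and 4 higher (median -0.52). Over all genes 10.9% were called lower and 10.7% higher at 12 months than at P38. For Gja1 the call at 6 months turned with the mean of the CPM of single cells. Spinous cells (495, 434 and 141 CPM) and bulge cells (297, 52.0 and 49.4 CPM) also had their lowest Cldn1 at 12 months.

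Of 10 measured antimicrobial genes 6 were called lower at 12 months than at P38 and none higher (median -1.77), among them Defb1 (3.99-fold) and Pglyrp3 at 32.0, 29.6 and 10.7 CPM. Of 16 cytokines and chemokines 8 were called lower and 4 higher at 12 months than at P38, and of 15 measured at 6 months over P38, 6 were called lower and 5 higher. Over all genes 10.9% were called lower and 10.7% higher at 12 months than at P38. At 6 months over P38 these shares were 5.99% and 6.13%. Cxcl14, a chemokine of skin epithelium, stood at 688, 220 and 99.6 CPM, and Ccl2, which draws monocytes, at 667, 116 and 33.2 CPM with UMIs in 46, 14 and 4 cells. Ccl27a (ENSMUSG00000073888), a keratinocyte chemokine for T cells, stood at 2766, 2306 and 2084 CPM and was not called. Tgfa stood at 135, 43.2 and 15.6 CPM, 8.51-fold lower at 12 months than at P38.

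Keratins and barrier genes moved in different directions. Krt6a, a keratin of the companion layer and of stressed epidermis, stood at 1555, 274 and 12.2 CPM, 125-fold lower at 12 months than at P38. Krt14 stood at 3682, 1568 and 2012 CPM and Krt10 at 1775, 838 and 2649 CPM, and Krt14 was called lower at 6 months than at P38 (2.35-fold) but stood higher there, by 0.19 on the log2 scale, when cells with kallikreins were included. Krt80 stood at 134, 375 and 322 CPM. Sprr1a stood at 8335, 8988 and 1480 CPM, 5.63-fold lower at 12 months than at P38, and Klk7 was 2.36-fold lower. Dsc1, a desmosomal cadherin of the upper layers, stood at 14.1, 54.4 and 117 CPM and was 8.18-fold higher at 12 months than at P38.

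Cornified envelope genes need the cells beside them. Of 22 measured, 11 were called lower and 2 higher at 12 months than at 6 months (median -1.06 against 0.03 over all genes). Over all genes 7.98% were called lower and 7% higher. Flg, the filaggrin of granular cells, stood at 0.416, 813 and 64.5 CPM with UMIs in 5 cells at 6 months and 6 at 12 months, and 1 cell held 67% of them at 6 months and 59% at 12 months. Lor stood at 5.82, 562 and 88.4 CPM, with 75% and 76% in 1 cell at the 2 later ages. With each gene computed without its highest cell, the median of the list was -1.20. The summed granular markers of the members were 61.2, 2083 and 230 CPM, with 70.7% of those at 6 months in 1 cell.

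Stress and metabolic genes were highest at P38 in several cases. Mt1, a metallothionein, stood at 2451, 498 and 605 CPM, and Hmox1, heme oxygenase, at 64.5, 17.6 and 5.86 CPM. Mgst1 stood at 473, 134 and 28.3 CPM, 16.6-fold lower at 12 months than at P38, and Scd1, the fatty acid desaturase of sebocytes, at 346, 50.4 and 40.0 CPM, beside the summed sebaceous markers given above, whose part in the result was not tested. Of 21 measured glutathione and xenobiotic genes 8 were called lower and 2 higher at 12 months than at P38, although the median of the list was 0.13. Over all genes 10.9% were called lower and 10.7% higher.

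Cell cycle inhibitors did not move together. Cdkn1a, an inhibitor of cyclin-dependent kinases, stood at 862, 831 and 322 CPM, 2.68-fold lower at 12 months than at P38. Cdkn2b stood at 20.8, 22.4 and 50.3 CPM. Cdkn2a had no UMI at P38 or 6 months and 26 UMIs in 13 cells at 12 months (12.7 CPM), at least 10.2-fold higher than at P38 by the limit of 3 counts. Mki67, a marker of cycling cells, stood at 7.91, 2.4 and 4.4 CPM.

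Of 15 measured BMP, Wnt and hedgehog genes 5 were called higher and none lower at 12 months than at 6 months, with a median of 0.78. Over all genes 7% were called higher and 7.98% lower. Axin2, a target of Wnt signals, stood at 8.32, 10.4 and 39.6 CPM, Wnt4 at 20.4, 24.8 and 84.0 CPM, and Id1, a target of BMP signals, at 114, 84.0 and 361 CPM. The Notch targets Hes1 (42.4, 136 and 144 CPM) and Nrarp (41.6, 84.0 and 134 CPM) were called higher at both later ages than at P38. The retinoid list had 6 of 16 genes called higher and none lower at 6 months than at P38, among them the receptors Rarg (39.5, 84.8 and 94.2 CPM) and Rxra (24.5, 53.6 and 49.3 CPM). In that comparison 6.13% of all genes were called higher and 5.99% lower.

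MHC class II genes were called higher at 6 months than at P38 in 6 of 6 cases, against 6.13% of all genes. The size of these ratios depended in part on few cells. Cd74, the invariant chain, stood at 68.2, 594 and 216 CPM with 80% and 92% of its UMIs in 1 cell at 6 and 12 months, and Langerhans and macrophage markers summed to 8.74, 157 and 21.0 CPM. A Cd74 UMI was in 17.4%, 37.2% and 16.4% of members at P38, 6 months and 12 months, and in 7.09%, 19.2% and 4.03% after thinning. For H2-Aa these shares were 8.33%, 20.9% and 9.43%, and 3.15%, 9.59% and 2.01% after thinning. Without the cells that held markers of other lineages, the median of the MHC class II list fell from 4.25 to 1.11 at 6 months over P38 and from 2.31 to -0.16 at 12 months over P38. Likewise Col1a1, a fibroblast collagen, was among the 10 highest genes at 12 months with 99% of its UMIs in 1 cell.

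Sex-linked genes matched the stated sexes: Xist stood at 0, 908 and 2.44 CPM in the members, and Ddx3y at 74.9, 0 and 53.7 CPM. The Skint genes, relatives of Skint1 that are expressed in skin and thymus, were highest at 6 months among these 3 libraries. Skint3 stood at 0, 246 and 0.488 CPM with UMIs in 62 of 86 cells at 6 months, Skint4 at 1.25, 109 and 0.488 CPM, and Skint9 at 0, 210 and 0 CPM. Spinous cells held 29.5 CPM of Skint3 and outer bulge cells 20.6 CPM at 6 months. Since the 6 months library alone came from females and from mostly anagen skin, these factors cannot be told apart.

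**Figure D4:**
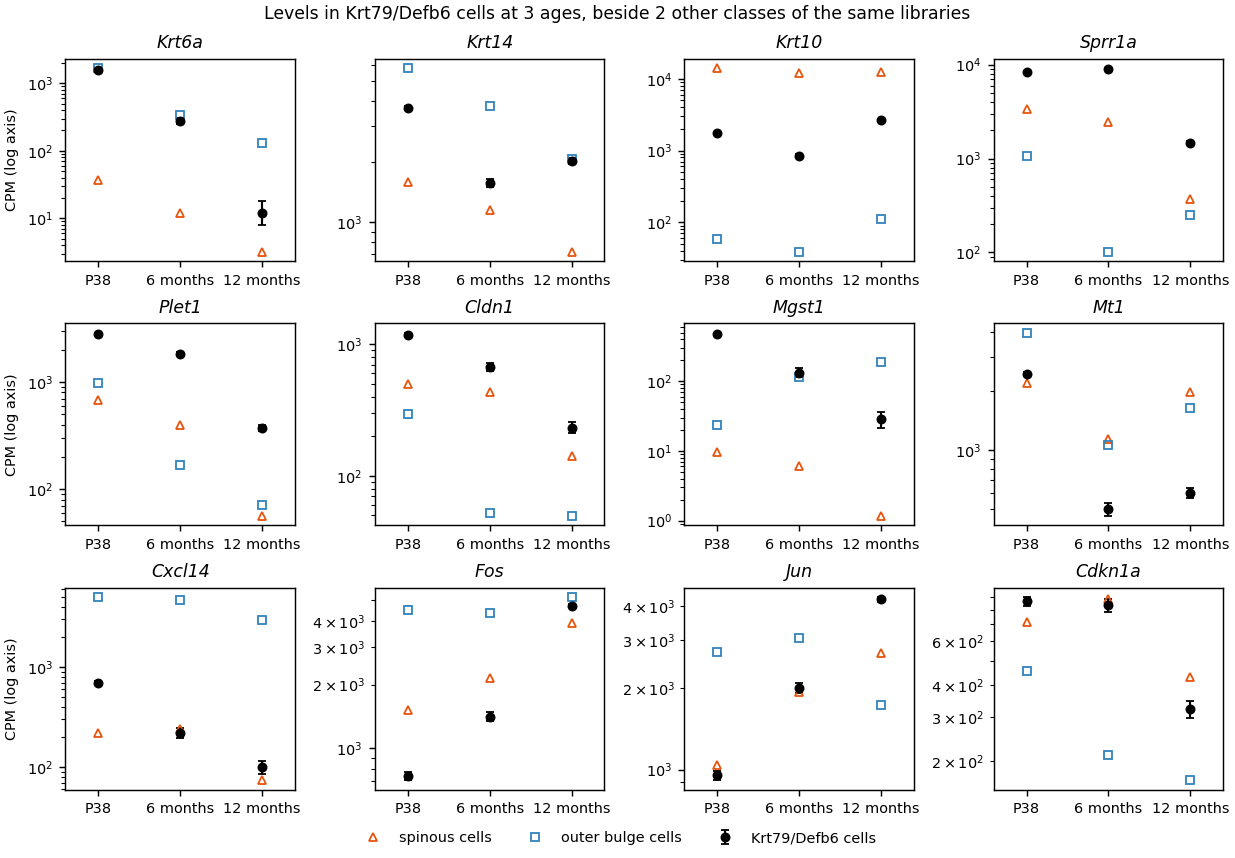
Summed CPM (log axis) of 12 genes at P38, 6 months and 12 months in the Krt79/Defb6 cells (filled circles with exact 95% Poisson intervals), spinous cells (open triangles) and outer bulge cells (open squares). Fos is highest at 12 months in all 3 classes, though by little in the outer bulge cells, and Krt6a, Plet1 and Cldn1 are lowest at 12 months in all 3 classes.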

How the data were processed

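Back skin of mice at P38, 6 months and 12 months was measured with 10x Genomics 3′ single-cell libraries, 1 per age. The deposited files hold UMI counts per gene and barcode. According to the submitters' notes and the file headers, the authors mapped reads to mm10 and counted with Cell Ranger (6.1.2 at P38, 6.0.0 in the headers of the later ages), and applied no normalization. The study's filter (more than 200 and fewer than 5000 genes, under 15% mitochondrial UMIs) was applied again and kept 2109 of 2397, 3502 of 4761 and 3240 of 5421 barcodes, holding 34646663, 24698719 and 38910431 UMIs. This left far more cells than the study lists at 6 months and slightly more at 12 months.

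Counts were summed per class and library with Python 3.11.15, numpy 2.4.6, pandas 2.3.3 and scipy 1.17.1, and TMM factors came from edgeR 4.0.16 in R 4.3.3 as an alternative scaling. Exact Poisson, conditional and binomial intervals were used. No doublets were removed, and an alternative left out the highest Scrublet scores. The ratio script was tested on simulated data. The text names the markers, the list genes with the highest levels or largest ratios, and the 10 highest and 10 lowest genes of a comparison. Plin2, Trbc1, the shared barcodes and the single cells that hold most UMIs of a gene were looked at after values were seen. Results of a few genes are not reported here. The members and lists were chosen with earlier results of these data known. Nothing says how many mice each library holds, and with 1 library per age no spread between mice was measured. Coordinates are those of GENCODE vM21 on GRCm38.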

Additional observations from a re-analysis of the deposited data

Results flagged for a closer look

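Barcodes outside the cell filter also met the 3 gene criteria: 21 at P38, 28 at 6 months and 29 at 12 months. They enter no comparison of the report.

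For 20 list genes the members were 2-fold or more higher than another class in 1 library and 2-fold or more lower in another, each with a counting interval that excluded 0. The value given is the highest minus the lowest log2 ratio of the 3 libraries, and the difference was not tested. Over kallikrein cells it was 2.58 for Csf1, 2.46 for Defb6, 4.74 for Fst, 2.86 for Id2, 3.50 for Krt16, 4.64 for Mt1, 5.25 for Mt2, 2.51 for Nlrc5, 2.96 for Rora and 3.12 for Serpinb2. Over spinous cells it was 4.66 for Casp14, 3.90 for Csta1, 3.71 for Epgn and 6.06 for Lor, and 1 cell held 75% of the Lor UMIs of the members at 6 months. Over outer bulge cells it was 3.05 for Dsg2, 9.05 for Gjb2, 2.8 for Jun, 7.04 for Mgst1, 4.80 for Top2a and 3.03 for Zfp36. Mgst1 stood at 473, 134 and 28.3 CPM in the members and at 23.7, 115 and 189 CPM in the bulge, so its order turned between P38 and 12 months. Defb6 was used by the rule that chose the members.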

How the results depend on the processing

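No paired analysis was possible because each age has 1 library and the ages share only the number of a lone sample. With at least 50 UMIs per gene the calls numbered 112 over kallikrein, 287 over spinous, 591 over sebaceous and 655 over outer bulge cells, 611 for 6 months over P38 and 744 for 12 months over 6 months, against 260, 476, 932, 1128, 1014 and 1258 as reported, where fewer genes were tested. Over kallikrein cells there were 163 with 2 counts added and 457 with each gene computed without its highest cell, an alternative added after the data were seen. Without the upper limit on genes 1580 were called over sebaceous cells, and 127 of the 260 calls over kallikrein cells, 363 of the 476 over spinous cells and 878 of the 1258 for 12 months over 6 months were kept. Leaving out 1 library gave 443 (without P38) to 924 (without 12 months) calls over kallikrein cells, 613 to 774 over spinous cells, 1178 to 1638 over sebaceous cells and 1369 to 1706 over outer bulge cells, where 2 of 2 libraries then had to agree. By the highest cell rule, 40.1% of the 6 months over P38 calls and 56.0% of the 12 months over 6 months calls were higher.

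Some age ratios turned sign. For 12 months over P38, Cd74 stood at -1.90 without the highest Scrublet scores, -1.67 without cells holding other lineages' markers and -1.56 without its highest cell, and H2-Ab1 at -1.23, -0.87 and -0.87. With the mean of the CPM of single cells, Btc was 0.47, Ccl20 0.031, Cnfn -0.43 and Klk11 -0.068 for 12 months over P38, and Gja1 0.23 for 6 months over P38. With no limit on Klk6 and Klk10, Krt14 was 0.19 and Pla2g7 0.0037 for 6 months over P38. Without the upper limit on genes, S100a8 was 0.41 for 6 months over P38 and S100a9 -0.68 for 12 months over 6 months. H2-Eb1 was 0.33 for 12 months over 6 months without cells holding other lineages' markers. The cause was not tested.

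Without barcodes shared by libraries, 472 of 476 calls over spinous cells, 1111 of 1128 over outer bulge cells, 990 of 1014, 1918 of 1945 and 1226 of 1258 between ages were kept. Without cells holding other lineages' markers these were 406, 972, 772, 1726 and 896. No value over kallikrein cells could be had under 6 alternatives, which left fewer than 20 of them in a library: a limit of 5 or none on Klk6 and Klk10, at least 1000 genes or 3000 UMIs per cell, no shared barcodes and no cells with other lineages' markers. Genes with few UMIs, such as Pglyrp4 or Rbp2 in single cells, are limited by depth.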

Other observations

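Transcripts of the T cell receptor beta constant genes were found in members without the other markers of T cells. Trbc1 stood at 19.1, 16.8 and 120 CPM at P38, 6 and 12 months, and was found in 18 of 132, 9 of 86 and 80 of 159 cells, and no cell held more than 33% of them. Trbc2 stood at 27.5, 41.6 and 88.4 CPM. Spinous cells held 6.53, 9.15 and 33.1 CPM of Trbc1 and outer bulge cells 0, 0.981 and 0 CPM. Of the 5 T cell markers 4, 3 and 4 had no UMI in the members.

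Stfa3, a stefin that inhibits cysteine proteases, stood at 16.2, 4.0 and 285 CPM. Limch1, an actin-binding protein, had no UMI at P38 or 6 months and stood at 24.9 CPM in 28 cells at 12 months, and Rab6b stood at 0.832, 0 and 21.0 CPM with UMIs in 39 cells at 12 months. Pyy, a gut peptide hormone, stood at 51.2, 33.6 and 29.8 CPM in 9, 13 and 8 members and at 92.2, 170 and 16.9 CPM in spinous cells.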
